A study of Mus musculus with 6 samples.

Results

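Wnt antagonists and Wnt target genes were measured by RNA sequencing in the mouse uterus on day 4 of pregnancy, at 1600 h. The genes were chosen by name: 7 secreted antagonists (Sfrp1, Sfrp2, Sfrp4, Sfrp5, Dkk1, Dkk2 and Dkk3) and 3 canonical target genes (Axin2, Lef1 and Lgr5), 10 of the 56748 genes in the tables. Each of the 10 names matched 1 gene ID. The Zip10 cKO group held 3 libraries from uteri with a conditional knockout of Zip10, the zinc importer gene Slc39a10, which the series design describes as restricted to the uterus. The Control group held 3 libraries labelled WT. The series title places the study's question in progesterone responsiveness. The labels call the tissue uterus and the series design endometrium. The sources used here name neither the driver of the deletion, the deleted exons nor the age of the animals. They also do not state that each library came from its own animal, so a p-value here reflects variation among 6 libraries, which may be technical.

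Wnt ligands are secreted proteins that bind Frizzled receptors and the co-receptors Lrp5 and Lrp6. This stops the breakdown of β-catenin, which then enters the nucleus and switches on target genes together with TCF and LEF transcription factors. In the uterus the pathway is known for its part in gland formation and in the exchange of signals between epithelium and stroma around implantation. Sfrp proteins carry a Frizzled-like domain and bind Wnt ligands outside the cell. Dkk1 and Dkk2 bind the co-receptors instead, while Dkk3 is a divergent relative that does not share this clear role. Axin2, Lef1 and Lgr5 are widely used as readouts of the pathway.

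Library sizes ran from 19643069 to 22809574 counts, and 16737 genes had enough counts to be tested. The targeted gene, Slc39a10, stood at 39.5, 72.5 and 79.8 CPM in cKO libraries 1, 2 and 3, against 54.6, 70.4 and 66.2 CPM in controls 1, 2 and 3 (CPM, counts per 1000000 after scaling between libraries). A gene total also counts reads from exons that may remain, so it does not check the genotype labels, and each direction below is that of the libraries labelled Zip10 cKO. cKO library 1 stood apart: in a multidimensional scaling of all libraries its first coordinate was -1.48, and those of the other 5 lay between -0.08 and 0.74. Fold changes without it are given beside each member and pathway gene that it moves by over 1.5 times.

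Comparing cKO with Control, edgeR's quasi-likelihood test called 0 of the 9 tested members at a Benjamini-Hochberg adjusted p under 0.05, and 0% of all tested genes. At an unadjusted p under 0.05 there were 0 of the 9, against 6.46% of all tested genes. DESeq2 called 0 members, against 0.208% of its genes, and had 1 member, Sfrp2, at an unadjusted p under 0.05. Its share over all genes was 4.15%, of 28970 genes not filtered on low counts. Of the 9 members, 5 had a positive and 4 a negative log2 fold change, with a median of 0.20, and the median over all tested genes was -0.00. The cKO libraries lay wholly on one side of the controls for 2 members, Dkk2 above and Sfrp2 below, where 12.7% of all tested genes did so. Dkk1, the member left untested, was too low for the filter on low counts. In bulk tissue, fewer cells of a type and less RNA per cell cannot be told apart.

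**Figure D1:**
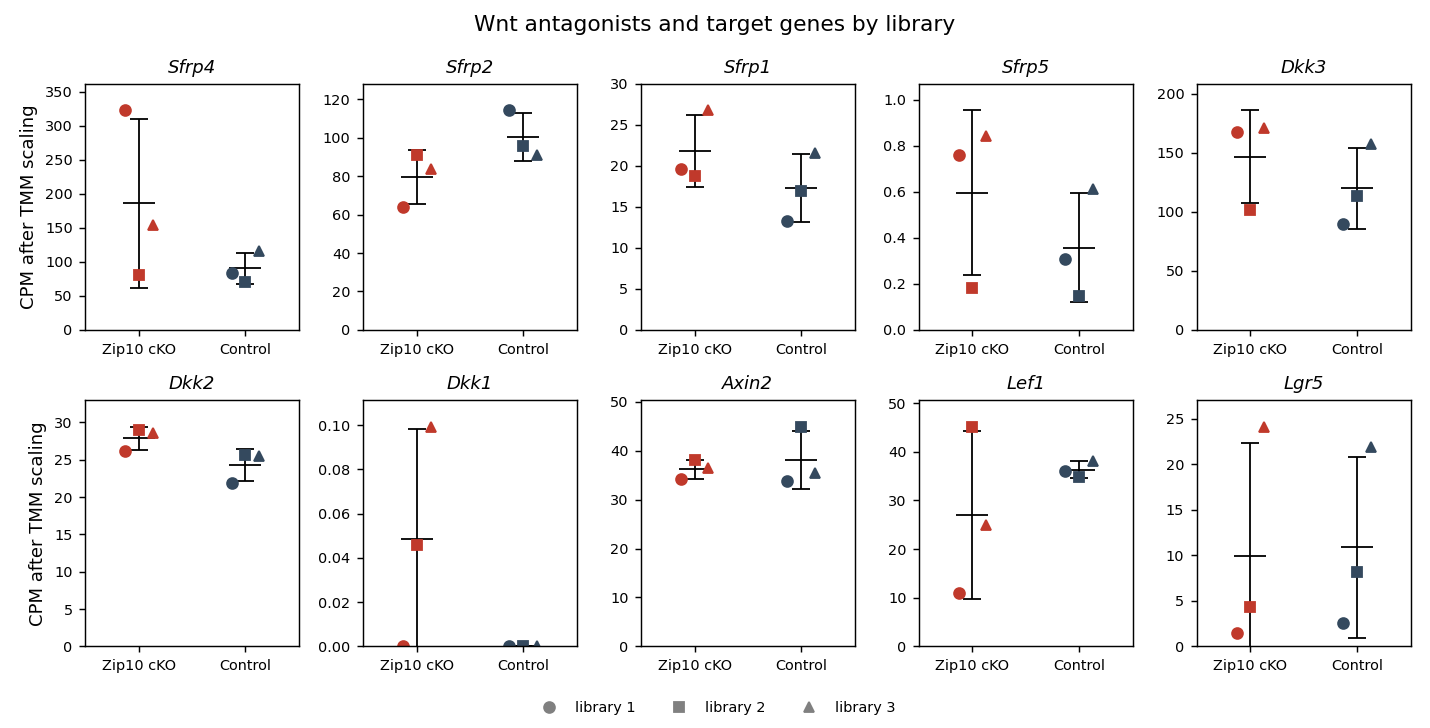
Each panel plots 1 member, with CPM after scaling between libraries on a vertical axis that starts at 0; points are libraries, the horizontal mark is the group mean and the bars are the SD (n = 3), cut off at 0. Sfrp4 in cKO library 1, at 323 CPM, and Lef1 in the same library, at 10.98 CPM, lie far from the other libraries, and Lgr5 is high in library 3 of both groups.

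Levels between genes can be compared per length, as TPM (transcripts per 1000000), which corrects for gene length. By mean TPM over the 6 libraries the order was Sfrp4 (119), Sfrp2 (64.2), Dkk3 (54.9), Lef1 (16.8), Axin2 (14.7), Dkk2 (9.63), Sfrp1 (6.07), Lgr5 (3.39), Sfrp5 (0.367) and Dkk1 (0.015). Sfrp4 exceeded Sfrp2 in 4 of 6 libraries and Sfrp2 exceeded Dkk3 in 4 of 6, so the ranks of these 3 overlap. Dkk3 lay above Lef1 in TPM without overlap, Axin2 lay above Dkk2 without overlap, and so did Sfrp5 above Dkk1. The ranges of the other neighbours overlapped: Lef1 exceeded Axin2 in 4 of 6 libraries, Dkk2 exceeded Sfrp1 in 6 of 6, and Sfrp1 exceeded Lgr5, and Lgr5 Sfrp5, in 5 of 6.

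Sfrp4, the most abundant of the secreted Frizzled-related antagonists here, was at 323, 80.6 and 154 CPM in cKO libraries 1, 2 and 3, against 84.3, 70.6 and 116 CPM in controls 1, 2 and 3. The groups overlap, since cKO library 2 lies below controls 1 and 3, while cKO library 1 holds the highest value by a wide margin. The means were 186 ± 124 CPM in cKO libraries and 90.3 ± 23.2 CPM in controls (SD, n = 3 each). The log2 fold change was 1.04 ± 0.47 (SE), with a 95% interval from -0.07 to 2.15 (edgeR adjusted p = 0.747). Without cKO library 1 it was 0.37, and without cKO library 2 it was 1.39; neither fit called the gene (edgeR adjusted p = 0.989 and 0.492).

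Sfrp2, the second Frizzled-related antagonist by level, had the opposite sign. It stood at 64.0, 91.1 and 83.5 CPM in cKO libraries 1, 2 and 3, against 114, 95.6 and 91.2 CPM in controls 1, 2 and 3. Every cKO library lay below every control, but cKO library 2 and control 3 are nearly equal; 5.78% of all tested genes had their cKO libraries wholly below. The log2 fold change was -0.34 ± 0.15 (SE), with a 95% interval from -0.68 to 0.00 (edgeR adjusted p = 0.747), and it was -0.20 without cKO library 1. Gm26771, an antisense gene that overlaps Sfrp2, held 5.01 to 18.5 counts, against 1346 or more for Sfrp2.

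Per length, Sfrp4 and Sfrp2 were the main Sfrp genes. Sfrp4 took 83.5%, 49.9% and 65.4% of the summed Sfrp TPM in cKO libraries 1, 2 and 3, against 48.0%, 45.7% and 56.6% in controls 1, 2 and 3. The ratio of Sfrp4 to Sfrp2 in TPM was 5.80, 1.09 and 2.17 in cKO libraries, against 0.971, 0.908 and 1.45 in controls. The groups overlap in both measures, because cKO library 2 lies below control 3.

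Sfrp1 was less abundant than both, at 19.7, 18.8 and 26.8 CPM in cKO libraries 1, 2 and 3, against 13.3, 17.0 and 21.6 CPM in controls 1, 2 and 3. The groups overlap, with control 3 above cKO libraries 1 and 2. The log2 fold change was 0.33 ± 0.21 (SE), with a 95% interval from -0.15 to 0.81 (edgeR adjusted p = 0.760), and leaving out 1 library gave 0.15 (without cKO library 3) to 0.52 (without control 3). Sfrp5, a close relative of Sfrp1, was near the limit of detection, with 16, 4 and 17 counts in cKO libraries and 7, 3 and 13 in controls. Its log2 fold change of 0.72 ± 0.65 (SE) has a 95% interval from -0.76 to 2.20 (edgeR adjusted p = 0.813). Leaving out 1 library gave 0.37 (without control 2) to 1.33 (without control 3). The counts are few and the libraries of each group also differ 4-fold or more, and what each adds to the width of the interval was not tested.

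Among the Dickkopf genes, Dkk3 was the most abundant, with a mean of 84.7% of the summed Dkk TPM in cKO libraries and 84.1% in controls. It was at 168, 101 and 171 CPM in cKO libraries 1, 2 and 3, against 89.5, 113 and 157 CPM in controls 1, 2 and 3. The groups overlap, with cKO library 2 below controls 2 and 3. Its log2 fold change was 0.29 ± 0.26 (SE), with a 95% interval from -0.30 to 0.88 (edgeR adjusted p = 0.807). It was 0.18 without cKO library 1, and over all libraries left out in turn it ran from 0.11 (without control 1) to 0.53 (without control 3).

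Dkk2, a ligand of the Lrp5 and Lrp6 co-receptors, had the narrowest spread of the antagonists. It stood at 26.1, 29.0 and 28.6 CPM in cKO libraries 1, 2 and 3, against 21.9, 25.6 and 25.5 CPM in controls 1, 2 and 3. All cKO libraries lay above all controls, as for 6.93% of all tested genes. The means were 27.9 ± 1.54 CPM in cKO libraries and 24.3 ± 2.12 CPM in controls (SD, n = 3 each), and the log2 fold change was 0.20 ± 0.12 (SE; 95% interval -0.07 to 0.46; edgeR adjusted p = 0.760). Without control 1 it was 0.12.

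Dkk1, the founding co-receptor antagonist, was all but undetected. It had 0, 1 and 2 counts in cKO libraries 1, 2 and 3, against 0 counts in every control. All of these lie under the 3 counts that a count of 0 allows, which is 0.138 to 0.149 CPM in cKO libraries and 0.132 to 0.148 CPM in controls, so no fold is given. These limits, like all counts here, cover counting error only.

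Added up, the 7 antagonists reached 420, 192 and 287 TPM in cKO libraries 1, 2 and 3, against 196, 193 and 239 TPM in controls 1, 2 and 3. cKO library 2 lay below all controls and the other cKO libraries above all of them. With Sfrp4 left out, the sum was 138, 122 and 153 TPM in cKO libraries and 122, 131 and 145 TPM in controls, and these ranges overlap.

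Axin2, a scaffold of the β-catenin destruction complex that β-catenin itself induces, was the steadiest of the target genes. It was at 34.2, 38.1 and 36.4 CPM in cKO libraries 1, 2 and 3, against 33.8, 44.9 and 35.5 CPM in controls 1, 2 and 3. The means of 36.2 ± 1.94 CPM in cKO libraries and 38.1 ± 5.98 CPM in controls (SD, n = 3 each) differ by less than the spread. The log2 fold change was -0.07 ± 0.13 (SE), and its 95% interval, from -0.37 to 0.22, corresponds to folds between 0.776 and 1.17 (edgeR adjusted p = 0.907). It was -0.03 without cKO library 1, and without control 2 the sign turned, to 0.06.

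Lef1, the transcription factor that carries β-catenin to target promoters and is itself a target, varied far more between cKO libraries than between controls. It stood at 10.98, 45.2 and 24.9 CPM in cKO libraries 1, 2 and 3, against 36.0, 34.8 and 38.2 CPM in controls 1, 2 and 3. The controls spanned 1.10-fold and the cKO libraries 4.12-fold, with 1 cKO library above and 2 below all controls. The log2 fold change was -0.43 ± 0.42 (SE), with a 95% interval from -1.40 to 0.55 (edgeR adjusted p = 0.831). It was -0.05 without cKO library 1 and -1.02 without cKO library 2, so these libraries decide its size, and neither fit called the gene (edgeR adjusted p = 0.995 and 0.505). An antisense gene, Gm43352, overlaps Lef1 and held 9.32 to 41.4 counts, against 231 or more for Lef1; the strand setting is not known, so their reads cannot be told apart.

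Lgr5, a receptor for R-spondins and a stem cell marker in other epithelia, had the widest range of the members. It was at 1.47, 4.33 and 24.1 CPM in cKO libraries 1, 2 and 3, against 2.55, 8.20 and 21.9 CPM in controls 1, 2 and 3. Each group holds 1 library far above its other 2, and the range was 16.4-fold in cKO libraries and 8.60-fold in controls. The log2 fold change was -0.13 ± 1.08 (SE), with a 95% interval from -2.71 to 2.45 (edgeR adjusted p = 0.986). Leaving out 1 library gave values from -1.90 to 0.90, with the sign turned without cKO library 1 (0.38), cKO library 2 (0.24) or control 3 (0.90).

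**Figure D2:**
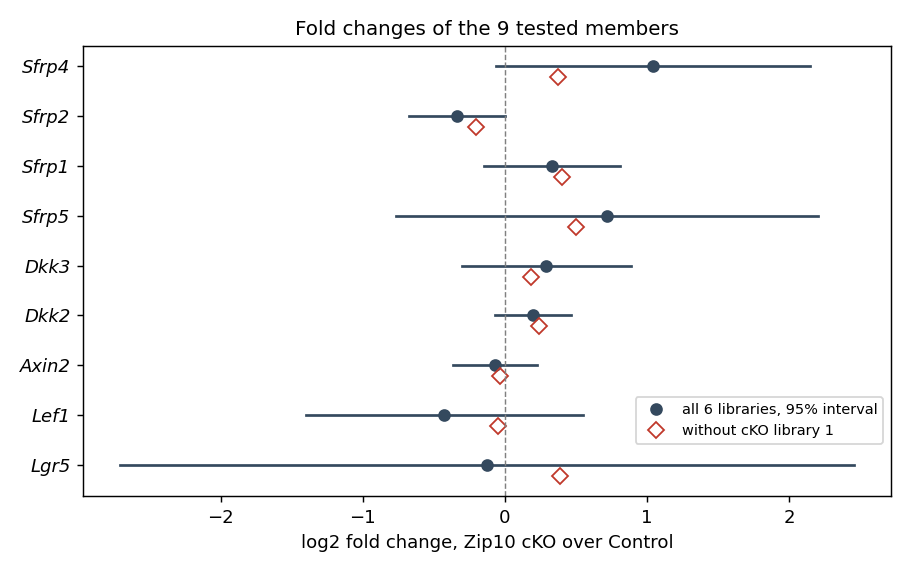
The horizontal axis is the log2 fold change of Zip10 cKO over Control for the 9 tested members; filled points with lines are the fit to all 6 libraries with its 95% interval, and open diamonds are the fit without cKO library 1. Every interval includes 0 (that of Sfrp2 ends at 0.00), and the diamonds of Sfrp4 (0.37) and Lef1 (-0.05) lie nearer to 0 than their points.

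The deposited tables also give each gene a length in every library, the mean length of its transcripts weighted by their estimated abundance. It moves when the mix of transcripts moves. Lef1 was 2155, 2481 and 2275 bases in cKO libraries 1, 2 and 3, against 2846, 2908 and 2809 bases in controls 1, 2 and 3, so every cKO library had the shorter mix. The means were 2303 ± 165 bases in cKO libraries and 2854 ± 50.4 bases in controls (SD, n = 3 each). On the log2 scale the difference was -0.31 ± 0.06 (SE), with a 95% interval from -0.46 to -0.16. It did not pass correction over the 13443 genes in which the length varied (limma adjusted p = 0.534, unadjusted p = 0.00312), where limma called 0% of genes at an adjusted p of 0.05 and 7.29% at an unadjusted p under 0.05. The difference was -0.26 without cKO library 1, and -0.37 to -0.26 over all 6 fits that left out 1 library, none of which passed correction for Lef1. This readout was chosen after its values were seen.

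Axin2 had the opposite sign, at 3676, 3555 and 3541 bases in cKO libraries 1, 2 and 3, against 3286, 3414 and 3329 bases in controls 1, 2 and 3. Again the groups do not overlap, and the difference was 0.10 ± 0.02 on the log2 scale (SE; limma adjusted p = 0.558). Groups that do not overlap in this length were found for 12.8% of the genes in which it varied, 6.43% with longer and 6.38% with shorter transcripts in cKO libraries. Lgr5, Sfrp4 and Sfrp2 overlapped between the groups, and the other members have 1 transcript each in the tables. TPM divides counts by the effective length, which follows this length closely. The Lef1 means come closer in TPM, at 16.3 ± 8.82 in cKO libraries and 17.3 ± 1.32 in controls (SD, n = 3 each). In CPM they were 27.0 ± 17.2 in cKO libraries and 36.3 ± 1.68 in controls. Over all genes, log2 TPM also shifted the fold changes by a median of 0.06.

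**Figure D3:**
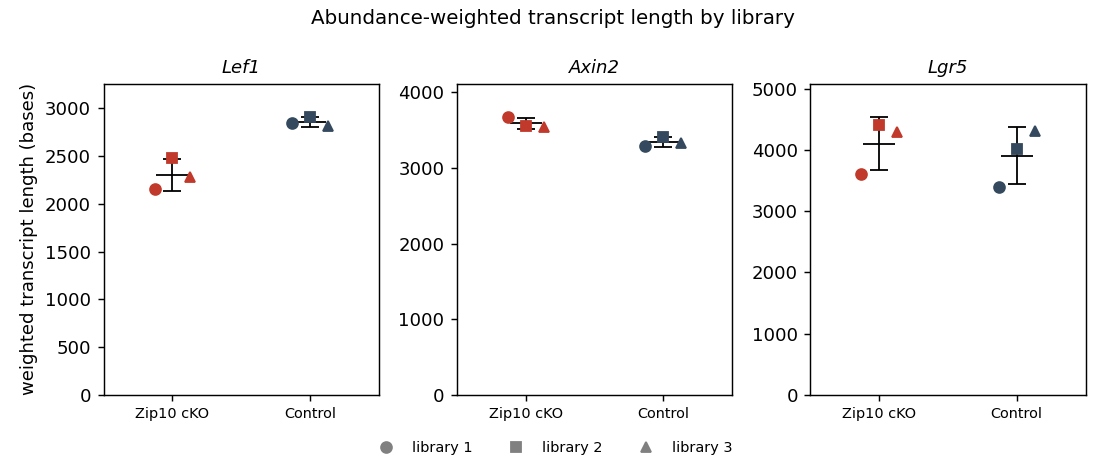
Abundance-weighted transcript length in bases, from 0, for the 3 target genes; points are libraries, the horizontal mark is the group mean and the bars are the SD (n = 3). Lef1 lies at 2155 to 2481 bases in cKO libraries and 2809 to 2908 bases in controls, Axin2 at 3541 to 3676 bases in cKO libraries and 3286 to 3414 bases in controls, and Lgr5 overlaps.

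The tables list 8 Lef1 transcripts. In the GENCODE M21 models, Lef1-201, Lef1-202 and Lef1-204 are coding, measure 3482, 3398 and 3357 bases and share the most upstream start and the first coding exon. Lef1-203, also coding, measures 2298 bases, starts 2326 bases further downstream and lacks that exon. In human cells a downstream LEF1 promoter gives a protein without the β-catenin binding region that the first exon encodes. The other 4 models have no coding sequence and measure 345 to 3656 bases. A gene-level length does not say which of these carried the difference.

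To show where these coding models begin, the 250 bases before a RefSeq start within 200 bases of each are printed. Another RefSeq start also lies within 200 bases of the upstream models, and its overlapping window is not printed. The printed Lef1 windows run 5′ to 3′ on the plus strand (RefSeq, GRCm38.p6), at chr3:131110047-131110296 for the upstream start and chr3:131112541-131112790 for the downstream one. The Dkk1 promoter (chr19:30549497-30549746, minus strand) is shown beside them. It is the single member window with CTTTGAA or CTTTGAT, the only extended TCF/LEF forms searched. Capitals mark CTTTG, the core that TCF and LEF proteins bind, or its reverse complement CAAAG.
Lef1 upstream start: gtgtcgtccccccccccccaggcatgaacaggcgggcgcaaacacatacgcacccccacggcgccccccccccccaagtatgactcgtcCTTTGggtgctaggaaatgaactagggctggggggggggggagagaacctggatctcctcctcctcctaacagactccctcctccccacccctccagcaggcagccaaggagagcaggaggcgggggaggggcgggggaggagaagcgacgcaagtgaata
Lef1 downstream start: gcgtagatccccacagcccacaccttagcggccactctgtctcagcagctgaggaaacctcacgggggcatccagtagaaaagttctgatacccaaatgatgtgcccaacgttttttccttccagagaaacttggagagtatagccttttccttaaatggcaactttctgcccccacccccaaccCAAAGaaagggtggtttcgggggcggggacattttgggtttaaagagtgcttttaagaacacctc
Dkk1: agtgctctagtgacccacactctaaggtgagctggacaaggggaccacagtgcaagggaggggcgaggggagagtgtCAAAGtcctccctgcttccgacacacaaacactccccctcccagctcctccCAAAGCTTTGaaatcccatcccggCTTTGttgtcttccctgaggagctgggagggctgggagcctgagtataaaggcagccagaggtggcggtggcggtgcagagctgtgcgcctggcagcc

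The upstream and downstream Lef1 windows printed hold 1 core match each; a RefSeq window that overlaps the upstream one holds 2, and another, further downstream, 3. The printed windows differ in base composition, with 66.4% and 50.8% G and C. The Dkk1 window holds 4 core matches, and 1 of them lies in CTTTGAA. RefSeq had 9 windows for 6 members (Sfrp2, Sfrp5, Dkk1, Dkk2, Axin2 and Lef1). Searched on both strands, the core was in 6 of these 9 windows and in 48.6% of all 32851 windows of that length. All 4 Lef1 windows, of which a pair overlap, are among these 6, and by gene the core was in 3 of 6 members (Dkk1, Dkk2 and Lef1). CTTTGAA was in 1 of the 9 and in 4.46% of all, and CTTTGAT, which like CTTTGAA contains the core, was in 0 of the 9 and in 3.21% of all. A match describes letters and not a binding site, and the Dkk1 promoter belongs to a gene with at most 2 counts per library.

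The rest of the pathway was read from 8 lists with 97 genes, of which 81 were tested. None of the 81 passed an adjusted p of 0.05 in either direction in edgeR's test, 6 were higher and 2 lower at an unadjusted p under 0.05 (4.48% and 1.98% of all tested genes), and the median log2 fold change was 0.03. DESeq2 called 0 of the 84 it gave an adjusted p, and 11 of the 93 with a p (11.8%) were at an unadjusted p under 0.05. Its share over all genes was 4.15%, but of 28970 genes not filtered on low counts, against 16737 genes in edgeR's test. The low genes among them can hardly reach such a p, so the DESeq2 shares are not a like comparison. The values that follow are log2 fold changes with SE, for the genes with the smallest p and the most abundant gene of each list, and none of them passed correction. The 27 genes so chosen include 6 with cKO libraries wholly above the controls (Wnt4, Wnt5b, Frzb, Kremen1, Apc and Btrc) and 2 wholly below (Tcf7 and Tcf7l2). Most were picked by p in this same comparison, which favours groups that do not overlap, so these counts have no fair background. Over all 81 tested pathway genes, 6 lay wholly above and 3 wholly below, where 6.93% and 5.78% of all tested genes did so. For 19 of the 27, leaving out some 1 library moved the value by over 1.5 times.

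Of 19 Wnt ligands 11 were tested, 3 with a positive and 8 with a negative fold change. Wnt5a, a ligand of non-canonical signalling and the most abundant at a mean of 49.5 TPM, gave -0.06 ± 0.15, with -0.17 without cKO library 1 and the sign turned without cKO library 3 or control 2. Wnt7b, Wnt5b and Wnt4, the last of which stromal cells use in decidualization, gave 1.09 ± 0.33, 0.48 ± 0.19 and 0.36 ± 0.14. Wls, which carries Wnt ligands to the cell surface, gave 0.04 ± 0.10 (0.08 without cKO library 1, and the sign turned without cKO library 3), and Porcn, which adds their lipid, -0.25 ± 0.21. Of 14 tested receptors 9 were positive: Ror1 gave 0.44 ± 0.20, Lrp5 0.23 ± 0.13, Fzd7 0.27 ± 0.16 and the abundant Ryk -0.05 ± 0.10, whose sign turned on the TPM scale. That scale shifted the fold changes of all genes by a median of 0.06. Without cKO library 1, Ror1 was at 0.28 and Lrp5 at 0.10. R-spondins enhance Wnt signals through Lgr receptors; Rspo3 gave 0.38 ± 0.15, Rspo1 0.26 ± 0.19 and Lgr6 0.77 ± 0.41. Lgr6 rests on cKO library 1, without which it was 0.32, and Rspo1 was 0.40 without that library and 0.12 without cKO library 2.

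Inhibitors outside the Sfrp and Dkk genes had 12 tested genes, 8 positive, with a median of 0.17. Kremen1, a receptor that acts with Dkk1, gave 0.38 ± 0.10 and had the smallest unadjusted p of the 81 genes (0.00525; edgeR adjusted p = 0.747). Frzb, a relative of the Sfrp genes, gave 0.68 ± 0.23, and the most abundant inhibitor, Apcdd1, a membrane protein, -0.37 ± 0.20. Without cKO library 1 these were 0.45 for Frzb and -0.16 for Apcdd1. Among the cytoplasmic transducers 11 of 14 were positive, with a median of 0.09. Apc, of the destruction complex, gave 0.24 ± 0.11, the ubiquitin ligase subunit Btrc 0.19 ± 0.12, Dvl3 0.11 ± 0.09 and Ctnnb1, β-catenin itself and the most abundant at 427 TPM, -0.07 ± 0.11. With each library's trend on gene length removed, Apc was at 0.03 and Dvl3 at 0.05.

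The nuclear effectors were 5 positive and 7 negative of 12. Tcf7 and Tcf7l2, from the same transcription factor family as Lef1, gave -0.31 ± 0.13 and -0.21 ± 0.14. The co-activator gene Bcl9l gave 0.17 ± 0.11 and the co-repressor gene Tle1 -0.20 ± 0.14. Without cKO library 1, Tcf7l2 was at -0.10 and Tle1 at -0.06, and with the length trend removed Bcl9l was at 0.05. Of 12 further target genes, 5 were positive and 7 negative, with a median of -0.02, beside a median of -0.13 for Axin2, Lef1 and Lgr5. Myc, a growth regulator, gave -0.31 ± 0.13, Bambi, a pseudoreceptor, -0.46 ± 0.23 and Nkd1, a feedback inhibitor, 0.19 ± 0.14.

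Markers of several cell types also differed between libraries. The summed level of 7 macrophage markers was 531, 253 and 346 CPM in cKO libraries 1, 2 and 3, against 256, 211 and 270 CPM in controls 1, 2 and 3, which is highest in cKO library 1, as for Sfrp4. All 7 had a positive fold change, with a median of 0.61. Cd163 did not share the peak: at 1.33 CPM in cKO library 1 it was lowest of the cKO libraries and below control 2 (1.48 CPM). The sum of the lymphocyte list was also highest in cKO library 1: 8 genes summed to 124, 86.9 and 89.2 CPM in cKO libraries and 69.7, 64.1 and 73.6 CPM in controls. Of the 6 tested, 5 were positive, with a median of 0.66. Most of that sum was Ptprc, a gene of leukocytes in general and not of lymphocytes alone. Ptprc was at 91.3, 58.1 and 62.8 CPM in cKO libraries 1, 2 and 3, against 43.7, 49.3 and 54.1 CPM in controls 1, 2 and 3. Cd3e and Cd3g were also highest in cKO library 1. Klrb1c and Prf1, at 2.19 and 12.3 CPM there, were instead the lowest of the cKO libraries, and Ncr1 was highest in control 1, at 8.17 CPM. Of 10762 genes with a mean of at least 10 CPM, those whose level ran closest to that of Sfrp4 over the 6 libraries were Pla1a, Itgam and Adgre1, with root mean square differences of 0.13, 0.13 and 0.21 in log2 CPM against a median of 0.77. Itgam and Adgre1 are surface markers of myeloid cells, and Adgre1 is one of the 7 markers. The part of macrophages or lymphocytes in the Sfrp4 result was not tested.

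Epithelial markers, 8 of 10 with a negative fold change, summed to 737, 1102 and 912 CPM in cKO libraries 1, 2 and 3, against 1346, 1208 and 878 CPM in controls 1, 2 and 3. cKO library 1, which had the lowest Lef1, had the lowest sum too, but control 3, with a low sum, had a high Lef1. The genes closest to Lef1 were Lamc3, a laminin chain, Fam198a and Scin, an actin-severing protein, with root mean square differences of 0.14, 0.19 and 0.19 against a median of 0.68. For Lamc3 the values were 17.5, 66.0 and 38.1 CPM in cKO libraries and 53.8, 58.8 and 46.8 CPM in controls. The part of the epithelial share in the Lef1 result was not tested.

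The 7 gland markers summed to 130, 134 and 381 CPM in cKO libraries 1, 2 and 3, against 173, 115 and 254 CPM in controls 1, 2 and 3, with library 3 the highest in both groups, as for Lgr5. Of the 7, Sox9, Prss28, Prss29 and Spink1 were highest in library 3 of both groups, while Foxa2, Cxcl15 and Ttr were highest in control 1, where Lgr5 was low. Control 2 had the lowest gland sum but more Lgr5 than control 1. The closest genes to Lgr5 were Coch, Inmt and Aox3, with differences of 0.72, 0.74 and 0.88 against a median of 1.48, so no gene followed it as closely as Pla1a followed Sfrp4. The part of glands in the Lgr5 result was not tested.

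Smooth muscle markers, 10 of 10 with a positive fold change and a median of 0.54, summed to 15637, 11703 and 11326 CPM in cKO libraries 1, 2 and 3, against 7158, 6716 and 12016 CPM in controls 1, 2 and 3. The most abundant of them had a mean of 2561 TPM, in libraries that the series design calls endometrium. Stromal markers, 7 of 12 positive with a median of 0.06, summed to 17113, 16948 and 15046 CPM in cKO libraries, against 11046, 12794 and 14244 CPM in controls. Dkk3, Sfrp1 and Dkk2 were lowest in control 1, which also had the lowest stromal sum. That sum is mostly collagen: 7 of the 12 markers were lowest in control 1, but Hoxa10, Hoxa11 and Twist2 were highest there, and the part of stroma in their values was not tested. No marker of these 5 lists was at 0 in all libraries.

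**Figure D4:**
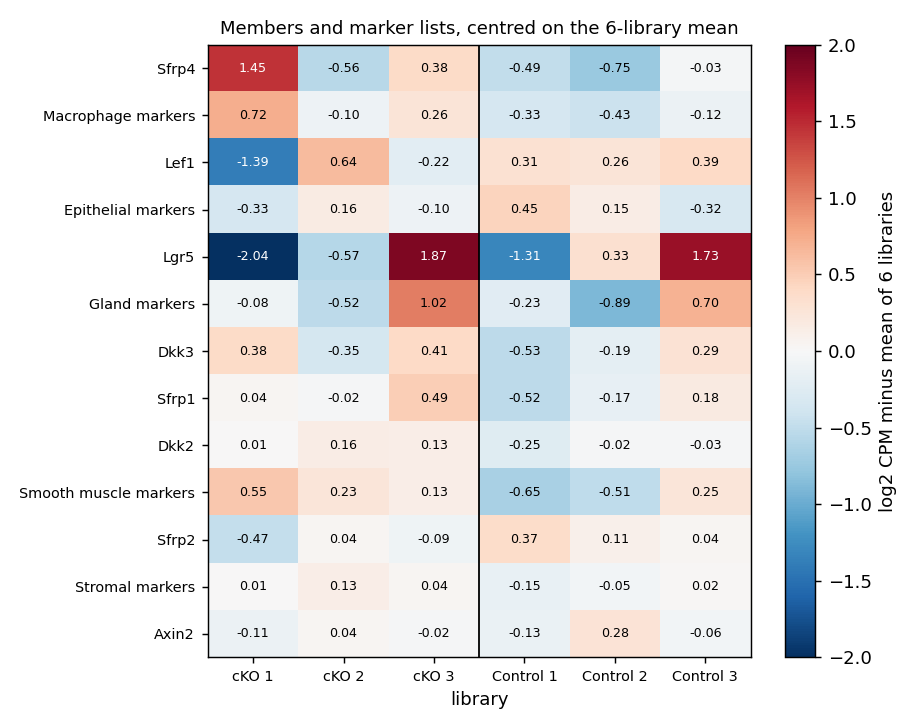
Rows are members and marker lists, columns are libraries, and each cell is log2 CPM minus its mean over the 6 libraries, as a mean over genes for a list. Sfrp4 and the mean of the macrophage markers are highest in cKO library 1 (1.45 and 0.72), and Lef1 is lowest there (-1.39). Of the macrophage markers, Cd163 is instead lower there than in the other cKO libraries. Lgr5 and the gland markers are high in cKO library 3 (1.87 and 1.02) and control 3 (1.73 and 0.70). The gland value is a mean over 7 markers, and 4 of them are highest in library 3 of both groups.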

How the data were processed

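Poly(A) RNA libraries from the uterus were grouped by the sample titles into 3 Zip10 cKO and 3 Control. Build GRCm39 (mm39), RSEM 1.3.3, edgeR 3.38.4, STAR 2.7.10a, R 4.2.1 and fastp 0.23.2 appear in the submitters' processing notes, without parameters. The sources used here do not give the annotation release or strand setting. As measurements, the authors deposited RSEM expected counts, which split shared reads between genes, and TPM, per the file headers, with a length and an effective length in bases per gene. TPM keeps no depth.

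Expected counts were rounded. Of 56748 IDs, 52073 (91.8%) matched a GENCODE M21 symbol; M21 belongs to another build and was used for names, transcript models and overlaps. Genes were kept by filterByExpr (minimum count 10, minimum total 15), scaled by TMM and compared by edgeR 4.0.16's robust quasi-likelihood test in R 4.3.3, two-sided, with Benjamini-Hochberg adjustment over 16737 genes and a threshold of 0.05. CPM are after TMM. Log2 CPM used a prior count of 3. The weighted length was tested with limma 3.58.1. Alternatives were DESeq2 1.42.0, other scalings, no filter, limma on log2 TPM (pseudocounts 1 and 0.1), a replicate block, removal of each library's trend on gene length (loess, span 0.5) and leaving out each library. The members, lists and tests were chosen with earlier results of these data known, and the weighted length was chosen after its values were seen.

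The pathway genes named were the 3 with the smallest p and the most abundant of each list; the genes alike in level were the 3 closest to each of the 3 tested members of widest range. Tested on simulated data of the cKO against Control design (16737 genes), edgeR recovered 32%, 84%, 98% and 100% of 50 genes each changed 1.5-fold, 2-fold, 4-fold and 8-fold, with 9 false calls. The changed genes were drawn from those with a mean of at least 50 counts, and no effect shared by a whole library was simulated. These shares are averages over such genes, so they do not apply to a low gene such as Sfrp5 or to 1 as variable as Lgr5. No library was taken for a copy of another, since the lowest chi-square of counts within a group, per degree of freedom, was 18.0. Figures were drawn with matplotlib 3.10.9.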

Additional observations from a re-analysis of the deposited data

How the results depend on the processing

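No member was called under any of the 14 alternatives. The count of all genes called, 0 in the quasi-likelihood test (1081 at an unadjusted p under 0.05), was 15 with no filter on low counts and 38 with DESeq2, the cause of which was not tested, and 0 to 2 when 1 library was left out, 2 of them without cKO library 1. With the replicate number as a replicate block it was 0, with 1354 at an unadjusted p under 0.05. In edgeR's test with that block, the log2 fold change was -0.46 for Lgr5 (unadjusted p = 0.103) and 0.34 for Sfrp1 (unadjusted p = 0.0431). The residual correlations of same-numbered libraries were 0.09, 0.25 and 0.19, and 5 of 6 libraries correlated best with their own number. These correlations are all positive but not all over 0.1, the limit set here, and the labels name no pairs. The main fit therefore has no block, and whether same-numbered libraries form pairs was not settled. In limma on log2 TPM, with pseudocounts of 1 and 0.1, the log2 fold change turned to 0.0352 and 0.0359 for Wnt5a and to 0.0299 and 0.0303 for Ryk. Over all genes these scales shifted the log2 fold change by a median of 0.0598 and 0.0644, about the size of both main values. Leaving out 1 library gave -0.158 to 0.0633 for Axin2, -1.90 to 0.90 for Lgr5, -0.184 to 0.0579 for Wnt5a and -0.00579 to 0.0830 for Wls. The weighted length test, added after seeing the data, called 0 genes (980 at an unadjusted p under 0.05) and 0 to 3 when 1 library was left out: 3 without control 2, 1 without cKO library 2 and 1 without control 3, never Lef1 or Axin2. Of the 9 tested members and 27 pathway genes, the others kept their sign under every alternative; the alternatives were not run for the other genes named. Sizes moved more: leaving out 1 library moved all 9 members and 19 of 27 pathway genes by over 1.5 times at least once, 6 and 10 of them without cKO library 1. Removing the length trend did so for 1 member and 7 pathway genes, among them Apc (0.0273) and Bcl9l (0.0532), and log2 TPM with a pseudocount of 1 for 3 and 10. The replicate block did so for 1 member, Lgr5, and for 0 pathway genes. DESeq2, the other scalings and no filter did so for 0. The order of the members by level was the same with scaled counts per kilobase. Dkk1 was below the limit that a count of 0 allows, and Sfrp4, Sfrp5, Lef1 and Lgr5 each spanned 4-fold or more among cKO libraries.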
